A study of Mus musculus with 12 samples.

Results

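The inner root sheath genes described here are trichohyalin (Tchh), peptidylarginine deiminase 3 (Padi3) and 7 keratins, Krt25, Krt26, Krt27, Krt28, Krt71, Krt72 and Krt73. They were chosen by name as genes of this hair follicle layer, with earlier results of these data known. All 9 are among the 24062 gene symbols counted. RNA was sequenced from wounds of the back skin of C57BL/6 mice in which diabetes had been induced with streptozotocin, a toxin of the insulin-producing beta cell. Each of the 12 libraries came from a different mouse, and 4 treatment labels of 3 mice each were compared: pre-MCS-01 and post-MCS-01, besides DSCG and the blank. The series title presents MCS-01, a code name, as a stabilizer of mast cells. DSCG commonly stands for disodium cromoglycate, a drug of the same kind, and blank served as the control. All groups share the strain, the diabetes and the wound. What pre and post refer to is not said in the labels, nor are dose, wound age, sex or animal age, and the groups were kept as labelled.

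The inner root sheath is the sleeve of keratinocytes that lies between the growing hair shaft and the outer root sheath. It is laid down by the hair matrix during the growth phase of the follicle, moulds the shaft, hardens before it and is shed inside the follicle. Its filaments are built from pairs of a type I keratin (Krt25 to Krt28) and a type II keratin (Krt71 to Krt73). Trichohyalin fills the space between the filaments, and its arginines are turned into citrulline by deiminases such as Padi3 before transglutaminases cross-link it to the keratins.

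Gene counts totalled 37702643 to 50461867 in 11 libraries and 3835042 in blank replicate 3. Levels are given as CPM, counts scaled to a common library size with TMM (factors 0.905 to 1.07). A library with 0 counts of a gene may hold up to 3 counts' worth, which is 0.786 CPM in blank replicate 3 and 0.0588 to 0.0852 CPM in the other 11, for counting error only. Genes with long exons ran below average in 3 libraries, replicate 2 of pre-MCS-01, replicate 2 of DSCG and replicate 3 of blank, with slopes of log2 level on log2 exon length of -0.26, -0.22 and -0.15 against -0.03 to 0.15 in the other 9. Krt5, a keratin of basal epidermis and of the outer root sheath, had a median of 5272 CPM in the post-MCS-01 libraries. Its medians were 6225 CPM in pre-MCS-01, 6646 CPM in DSCG and 6046 CPM in blank, so every group held keratinocyte RNA. In whole wound tissue, fewer inner root sheath cells and less RNA per cell cannot be told apart.

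The genes lie in 4 places of the genome (GENCODE M21 on GRCm38). Tchh is on chromosome 3 at 93442330 to 93449077 on the plus strand, and Padi3 on chromosome 4 at 140785365 to 140810648 on the minus strand. Krt25, Krt26, Krt27 and Krt28 stand side by side on chromosome 11 between 99315516 and 99374903, and Krt71, Krt72 and Krt73 on chromosome 15 between 101733949 and 101802346, all on the minus strand. Because the 9 genes are spread over 4 loci and were low together in the post-MCS-01 libraries, the DNA just upstream of 5 of them is shown: Tchh and the 4 keratins whose windows hold TAATTA, the rarest of the motifs searched among all promoters. Each line gives the 250 bases before the RefSeq start on GRCm38.p6, 5′ to 3′ on the coding strand. Capitals mark 3 motifs that were picked after these sequences had been read. They are TATAAA, a form of the TATA box, then AGATAA, a form of the letters that factors of the Gata family bind, and last TAATTA, a core of many homeodomain sites.
Tchh: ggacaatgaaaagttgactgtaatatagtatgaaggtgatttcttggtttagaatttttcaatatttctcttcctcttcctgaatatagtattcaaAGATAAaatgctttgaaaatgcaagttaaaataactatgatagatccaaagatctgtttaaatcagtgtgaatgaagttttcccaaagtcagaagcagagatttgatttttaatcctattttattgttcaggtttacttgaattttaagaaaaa
Krt25: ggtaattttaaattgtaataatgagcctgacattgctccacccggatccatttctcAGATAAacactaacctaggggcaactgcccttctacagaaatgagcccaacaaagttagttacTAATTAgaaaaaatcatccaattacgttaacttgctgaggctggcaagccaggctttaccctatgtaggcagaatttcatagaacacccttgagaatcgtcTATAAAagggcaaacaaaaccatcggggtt
Krt28: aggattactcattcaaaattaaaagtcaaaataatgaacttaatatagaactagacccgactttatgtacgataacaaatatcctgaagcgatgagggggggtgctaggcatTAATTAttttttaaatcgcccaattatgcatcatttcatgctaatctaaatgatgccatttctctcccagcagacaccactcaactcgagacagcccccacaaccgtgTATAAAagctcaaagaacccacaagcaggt
Krt71: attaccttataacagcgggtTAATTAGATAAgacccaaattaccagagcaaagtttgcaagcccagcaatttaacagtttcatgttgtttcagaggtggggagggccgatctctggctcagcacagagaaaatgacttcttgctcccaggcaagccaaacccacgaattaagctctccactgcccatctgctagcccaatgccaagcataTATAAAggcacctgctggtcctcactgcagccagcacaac
Krt73: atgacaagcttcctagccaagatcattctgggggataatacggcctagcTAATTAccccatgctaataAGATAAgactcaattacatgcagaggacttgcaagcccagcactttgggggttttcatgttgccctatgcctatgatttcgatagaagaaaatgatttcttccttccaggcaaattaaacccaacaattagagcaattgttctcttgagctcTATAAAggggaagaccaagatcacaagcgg

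These windows are chr3:93442080-93442329 (plus strand), chr11:99322952-99323201, chr11:99374904-99375153, chr15:101743098-101743347 and chr15:101802361-101802610 (minus strand). In the Krt71 line the TAATTA and AGATAA matches overlap by 1 base. All 9 genes had an entry in the promoter table, which runs from 250 bases before to 50 bases after the start for 32851 promoters. TATAAA began 40 to 20 bases before the start on the coding strand in 5 of the 9 (Krt25, Krt26, Krt28, Krt71 and Krt73), against 1.99% of all promoters. Measured from the GENCODE start instead, it began at -30 for Krt25 and Krt28, -29 for Krt26 and Krt27, -28 for Krt71 and -44 for Krt73. Over the whole window and either strand, TATAAA was in 7 of 9 against 13.6% of all promoters, AGATAA in 5 of 9 (Tchh, Krt25, Krt27, Krt71 and Krt73) against 11.2%, and TAATTA in 4 of 9 (Krt25, Krt28, Krt71 and Krt73) against 5.29%. The longest run shared by any of the 36 pairs of windows was ttgcaagcccagca, 14 bases, in Krt71 and Krt73, which flank Krt72. The 3 motifs were picked after these sequences had been read. That choice favours counts above the share of all promoters, so the comparison is a description and not a test. These matches describe letters and are not shown to be bound. The Padi3 window held none of the 3 motifs, and Krt72 had a single TATAAA match on the opposite strand.

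All 9 genes were at their lowest in the post-MCS-01 wounds and abundant in the other 3 groups. Their summed level was 29.9 to 85.1 CPM in the post-MCS-01 libraries, 12582 to 30748 CPM in the pre-MCS-01 wounds, 2024 to 41486 CPM in DSCG and 6868 to 20430 CPM in blank. As a share of all scaled counts this was 0.00299% to 0.00851% in post-MCS-01, 1.26% to 3.07% in pre-MCS-01, 0.202% to 4.15% in DSCG and 0.687% to 2.04% in blank. For each of the 9, the 3 post-MCS-01 libraries lay below all 9 other libraries, a pattern that 3.3% of the 16267 genes tested showed.

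**Figure D1:**
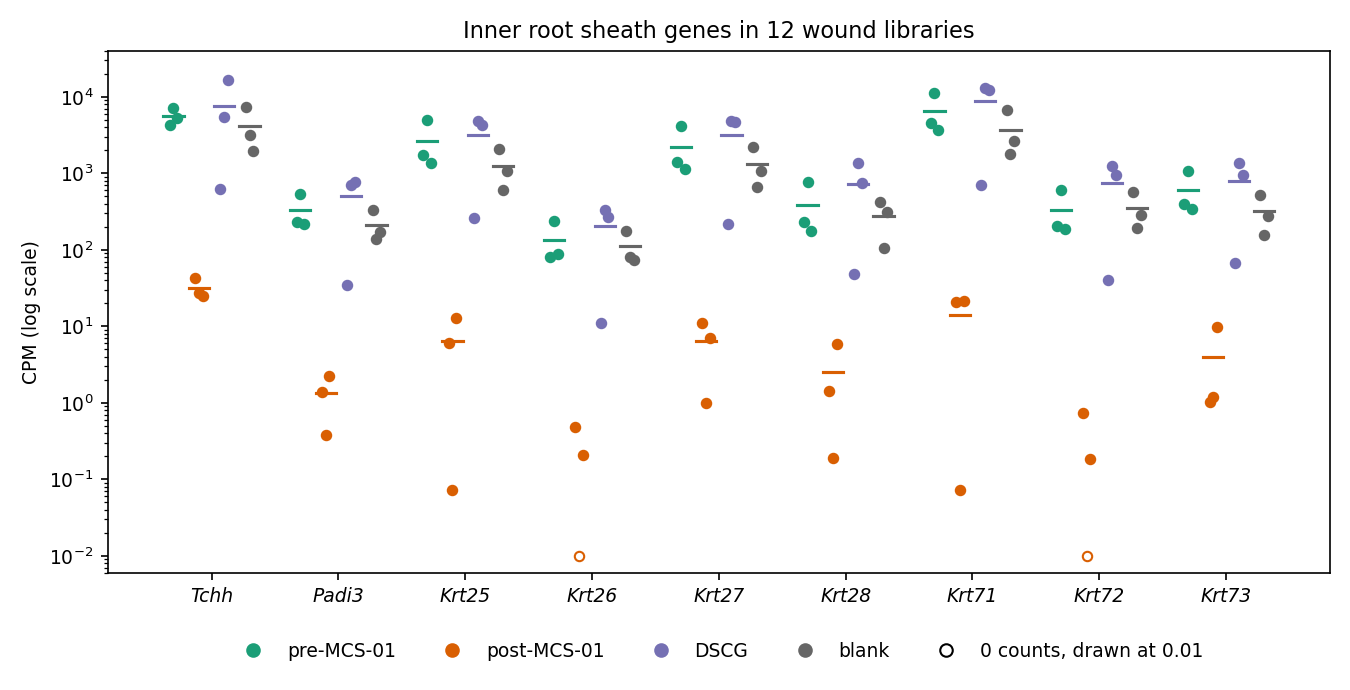
Level of each inner root sheath gene in CPM on a log scale, with a point per library and a line at the mean of each group of 3 that has no library at 0. Every post-MCS-01 point (orange) lies below every point of the other groups, and the lowest of those others is DSCG replicate 1 for each gene. Open circles are libraries with 0 counts, Krt26 and Krt72 in post-MCS-01 replicate 2.

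Trichohyalin, the matrix protein of the sheath, had 42.4, 27.0 and 25.0 CPM in the 3 post-MCS-01 libraries. It had 4247, 7243 and 5346 CPM in the pre-MCS-01 wounds, 630.3, 5433 and 16714 CPM in DSCG, and 7413, 3158 and 1952 CPM in blank. The post-MCS-01 libraries lay close together, while the DSCG libraries spanned the widest range of any group. The lowest library outside post-MCS-01, DSCG replicate 1, was still 14.9 times the highest post-MCS-01 library. Tchh fell 178-fold in post-MCS-01 relative to pre-MCS-01 (log2 fold change -7.48 ± 1.10 SE, edgeR adjusted p = 0.0313) and 241-fold relative to DSCG (-7.92 ± 1.12 SE, edgeR adjusted p = 0.0288).

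Padi3, which prepares trichohyalin for cross-linking and whose human counterpart is, like TCHH, a gene of uncombable hair syndrome, had 1.39, 0.384 and 2.23 CPM in post-MCS-01. It had 229, 541 and 220.1 CPM in the pre-MCS-01 wounds, 34.4, 704 and 764 CPM in DSCG, and 328, 137 and 170.3 CPM in blank. Its post-MCS-01 values were again apart from the rest, with 15.5 times between the highest of them and DSCG replicate 1. The log2 fold change of Padi3 was -7.95 ± 1.17 SE in post-MCS-01 against pre-MCS-01 and -8.55 ± 1.20 SE in post-MCS-01 against DSCG (edgeR adjusted p = 0.0313 and 0.0288).

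Among the type I keratins, Krt25 and Krt27 were the abundant pair and Krt26 the scarcest. Krt25, changed in mice with wavy coats, had 5.97, 0.0720 and 12.99 CPM in post-MCS-01, 1737, 4924 and 1362 CPM in the pre-MCS-01 wounds, 263, 4843 and 4257 CPM in DSCG, and 2089.8, 609 and 1061 CPM in blank. Krt27 had 10.98, 1.01 and 7.09 CPM in post-MCS-01, 1396, 4167 and 1149 CPM in the pre-MCS-01 wounds, 219.6, 4756 and 4644 CPM in DSCG, and 2224, 659 and 1072 CPM in blank. In both, post-MCS-01 replicate 2 was the lowest of all 12 libraries, at 3 counts of Krt25 and 42 of Krt27.

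Krt28 had 1.41, 0.192 and 5.94 CPM in post-MCS-01, 228, 759 and 178 CPM in the pre-MCS-01 wounds, 47.6, 1378 and 749 CPM in DSCG, and 419, 106 and 314 CPM in blank. Of the type I genes it came nearest to closing the gap, with DSCG replicate 1 at 8.01 times post-MCS-01 replicate 3. Krt26, which in human follicles marks the cuticle of the sheath, had 0.479, 0 and 0.207 CPM in post-MCS-01 (19, 0 and 9 counts), 80.0, 237 and 87.2 CPM in the pre-MCS-01 wounds, 11.1, 328 and 267 CPM in DSCG, and 178, 79.5 and 73.6 CPM in blank. A count of 0 in post-MCS-01 replicate 2 allows up to 0.0720 CPM.

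Krt71, the main type II keratin of the sheath and the gene changed in the curly-coated Caracul mouse, had 20.7, 0.0720 and 21.3 CPM in post-MCS-01. It had 4561, 11212 and 3714 CPM in the pre-MCS-01 wounds, 709.9, 13213 and 12214 CPM in DSCG, and 6684, 1767 and 2631 CPM in blank. Krt71 was alike in post-MCS-01 replicates 1 and 3 and at 3 counts in replicate 2, where Tchh still had 1125 counts. Krt72 and Krt73 are keratins of the sheath cuticle in human follicles. Krt72 had 0.731, 0 and 0.184 CPM in post-MCS-01 (29, 0 and 8 counts), 203, 609 and 185 CPM in the pre-MCS-01 wounds, 40.4, 1246 and 939.8 CPM in DSCG, and 572, 195 and 288 CPM in blank, the widest gap of the 9 at 55.2 times. Krt73 had 1.03, 1.18 and 9.85 CPM in post-MCS-01, 402, 1057 and 341 CPM in the pre-MCS-01 wounds, 67.9, 1372 and 937 CPM in DSCG, and 522, 158 and 277 CPM in blank. Its gap was the narrowest of the 9, at 6.90 times, and post-MCS-01 replicate 3 was the high one of its group.

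Against pre-MCS-01, all 9 genes fell in post-MCS-01 by edgeR's quasi-likelihood test with Benjamini-Hochberg adjustment over all genes, where 0.805% of genes tested were called lower. The log2 fold changes ran from -10.09 ± 1.54 SE for Krt72 to -7.22 ± 1.32 SE for Krt73 with a median of -8.46, beside -0.03 over all genes, and edgeR's adjusted p ran from 0.0313 to 0.0489. Between these ends stood Krt26 (-9.20 ± 1.40 SE), Krt71 (-8.85 ± 1.76 SE), Krt25 (-8.72 ± 1.65 SE), Krt27 (-8.46 ± 1.37 SE) and Krt28 (-7.26 ± 1.47 SE). The groups did not overlap for any of the 9, beside 10.7% of all genes tested. Standard errors (SE) here were worked back from the F statistic of edgeR's test and are approximate. They were above 1 log2 unit throughout, but do not measure differences between genes within the same libraries. The order of the genes by fold change was not tested. DESeq2 called 9 of 9 lower (1.91% of its genes), limma-voom called Tchh alone (0.00615%), and limma-voom with library quality weights called 9 of 9 (11.2%). Without 1 library the log2 fold changes stayed between -11.69 and -6.33, but edgeR called 0 of the 9 without pre-MCS-01 replicate 2, without blank replicate 3 or without any one of post-MCS-01 replicates 1, 2 and 3. It called 1 (Tchh) without DSCG replicate 3, 4 (Tchh, Padi3, Krt26 and Krt72) without blank replicate 2, 5 without pre-MCS-01 replicate 3, DSCG replicate 2 or blank replicate 1, 7 without pre-MCS-01 replicate 1 and 9 without DSCG replicate 1. Over those 12 fits edgeR's adjusted p spanned 0.00101 to 0.254. In this and the next 2 comparisons, the shares of all genes called without 1 library are not given here. These counts therefore do not single out the 9 genes.

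Against DSCG, all 9 fell in post-MCS-01 by the same test, where 0.916% of genes tested were called lower. The changes ran from -11.25 ± 1.599 SE for Krt72 to -7.62 ± 1.34 SE for Krt73 with a median of -8.94, beside -0.01 over all genes, and edgeR's adjusted p ran from 0.0288 to 0.0378. Krt26 (-9.78 ± 1.43 SE), Krt71 (-9.28 ± 1.79 SE), Krt27 (-8.98 ± 1.40 SE), Krt25 (-8.94 ± 1.67 SE) and Krt28 (-8.17 ± 1.53 SE) lay between. No group overlap was seen in any of the 9, beside 8.28% of all genes tested. DESeq2 called 9 of 9 lower (2.5% of its genes), limma-voom called Tchh alone (0.00615%), and limma-voom with library quality weights called 0 of 9 (0%). Without 1 library the log2 fold changes stayed between -12.87 and -6.56. EdgeR called 0 of the 9 without DSCG replicate 2 or 3, blank replicate 3, or post-MCS-01 replicate 1, 2 or 3, and it called 5 without blank replicate 2, 6 without pre-MCS-01 replicate 3, 8 without pre-MCS-01 replicate 1 or blank replicate 1, and 9 without pre-MCS-01 replicate 2 or DSCG replicate 1 (adjusted p 0.000578 to 0.178). The pre-MCS-01 and DSCG comparisons share the post-MCS-01 libraries and are not independent of each other.

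Against blank, the post-MCS-01 level of all 9 genes was below that of every blank library, but edgeR called 0 of the 9 and 0% of all genes tested. The log2 fold changes ran from -10.18 ± 1.54 SE for Krt72 to -6.31 ± 1.27 SE for Krt73 with a median of -7.62, beside -0.01 over all genes, and included -7.05 ± 1.08 SE for Tchh, -7.31 ± 1.14 SE for Padi3 and -8.04 ± 1.70 SE for Krt71. EdgeR's adjusted p was 0.0692 to 0.0859. Its unadjusted p was 3.19e-05 to 0.000571, under 0.05 for 9 of 9 beside 5.44% of all genes in that direction, and the groups did not overlap for 9 of 9 beside 9.45%. DESeq2 called 9 of 9 (1.59% of its genes were called lower), limma-voom 0 of 9 (0%), and limma-voom with library quality weights 9 of 9 (3.16%). In edgeR fits without 1 library the count was 9 without DSCG replicate 1, 4 (Tchh, Padi3, Krt26 and Krt72) without DSCG replicate 3 and 0 without any other, and the log2 fold changes stayed between -11.82 and -5.73. A joint edgeR test of the 4 groups called 0 of 9 (adjusted p 0.166 to 0.201, 0% of all genes called), with an unadjusted p of 0.000157 to 0.00229 for the 9, beside 8.42% of all genes with an unadjusted p under 0.05. DESeq2 called 9 of 9 jointly (3.17% of its genes), limma-voom called Tchh alone (0.00615%), and limma-voom with quality weights called 9 of 9 (13.5%).

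**Figure D2:**
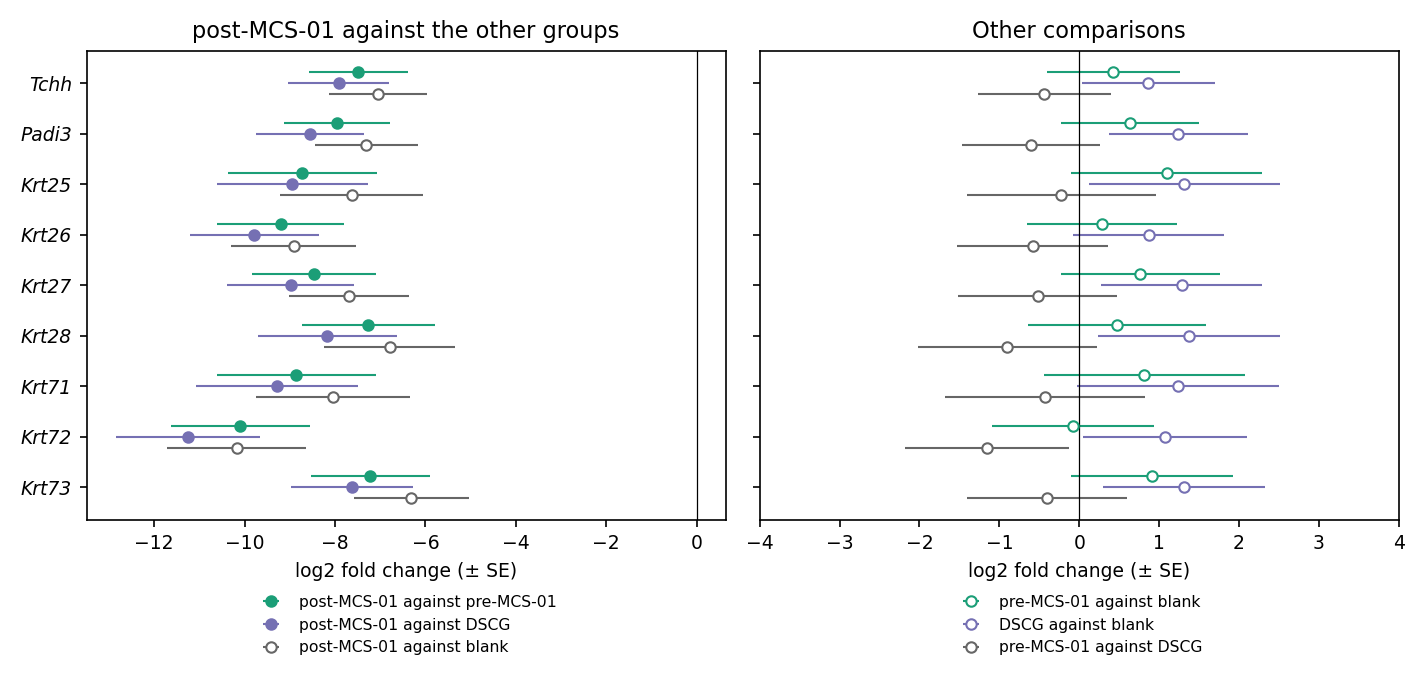
Log2 fold change with its approximate standard error for each gene in the 6 comparisons, from edgeR with 3 libraries a group. Filled points passed an adjusted p of 0.05. The post-MCS-01 panel (left) lies wholly at or below -6.31 and the panel of the other comparisons (right) between -1.16 and 1.37, on different axis ranges.

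The 3 groups outside post-MCS-01 did not separate. In pre-MCS-01 against blank the log2 fold changes ran from -0.08 ± 1.01 SE for Krt72 to 1.09 ± 1.19 SE for Krt25. In DSCG against blank they ran from 0.86 ± 0.83 SE for Tchh to 1.37 ± 1.13 SE for Krt28, and in pre-MCS-01 against DSCG from -1.16 for Krt72 to -0.22 for Krt25. EdgeR, DESeq2 and both limma-voom fits called 0 of 9 in each of these 3 comparisons, none had an edgeR unadjusted p under 0.05 (lowest 0.181), and the groups overlapped for every one of the 9. EdgeR called 0% of all genes tested in each. In pre-MCS-01 against blank, 7.24% of all genes had an unadjusted p under 0.05, 5.96% had pre-MCS-01 wholly below blank, and DESeq2 called 0.293% lower, limma-voom 0% and limma-voom with quality weights 9.33%. In DSCG against blank these shares were 1.03%, 1.77%, 0%, 0% and 0%, and in pre-MCS-01 against DSCG 2.36%, 2.59%, 0.0413%, 0% and 0%. With standard errors near 1, differences of several fold among these groups were not detectable. The DSCG mean of every gene rested on replicates 2 and 3: replicate 1 lay below all pre-MCS-01 and blank libraries for all 9. Without DSCG replicate 3 the Tchh value was -0.48 in DSCG against blank and 0.87 in pre-MCS-01 against DSCG, both of the opposite sign, and without pre-MCS-01 replicate 2 the keratins had -0.86 to 0.31 in pre-MCS-01 against blank.

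Per kilobase of exon, the first and last of the 9 genes were the same in every library outside post-MCS-01, while the shares of the others varied, that of Tchh most. Krt71 was first in all 9 of those libraries, with 34.0% to 40.9% of the summed CPM per kb, and Krt26 was last in all 9, with 0.378% to 0.911%. Krt27 (16.5% to 21.0%), Krt25 (12.9% to 19.0%) and Tchh (6.27% to 22.8%) held the next places in changing order. Krt73 (2.83% to 4.25%), Krt28 (2.44% to 5.87%) and Krt72 (1.99% to 4.38%) followed, and Padi3 (1.20% to 1.67%) was eighth. The summed type II keratins stood at 1.03 to 1.28 times the summed type I keratins per kb in these 9 libraries. Krt73 stood at 0.0773 to 0.106 times Krt71.

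The few reads left in post-MCS-01 did not keep all of these proportions. In replicates 1 and 3 Krt71 was still first, with 32.6% and 28.6%, and Krt26 last. The ratio of type II to type I keratins per kb was 0.931, 0.715 and 0.971 in post-MCS-01 replicates 1, 2 and 3, below all 9 other libraries. That of replicate 2 rested on 52 type II and 53 type I counts, and no counting interval was computed for these ratios. In replicate 2, Tchh took 75.7% of the summed CPM per kb and stood at 141 times Krt71 (exact 95% counting interval 48.0 to 684, since Krt71 had 3 counts), against 0.154 to 0.671 in the libraries outside post-MCS-01. Replicates 1 and 3 had Tchh at 0.768 and 0.439 times Krt71. In replicate 3, Krt28 held 10.7% and Krt73 13.3%, above their shares in all 9 other libraries. Within the 9 other libraries, Tchh relative to Krt71 was lowest at 0.243 in pre-MCS-01 replicate 2, at 0.154 in DSCG replicate 2 and at 0.279 in blank replicate 3, the 3 libraries short of long transcripts. Tchh has the longest exons of the 9 (5823 bases, against 1550 to 3668), and a link between exon length and these ratios was not tested. Reads from stretches shared with another gene may not align uniquely, and reads not uniquely aligned were not counted for any gene. Of 50-base stretches of the transcript, 11.1% of Krt27, 10.9% of Krt25, 2.41% of Krt28, 1.97% of Krt71 and 1.32% of Krt73 also occur in another gene's transcript, 0.801% of Padi3, 0.304% of Krt26, 0.158% of Krt72 and none of Tchh. Krt27 and Krt25 therefore had the largest part of the transcript open to such loss.

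**Figure D3:**
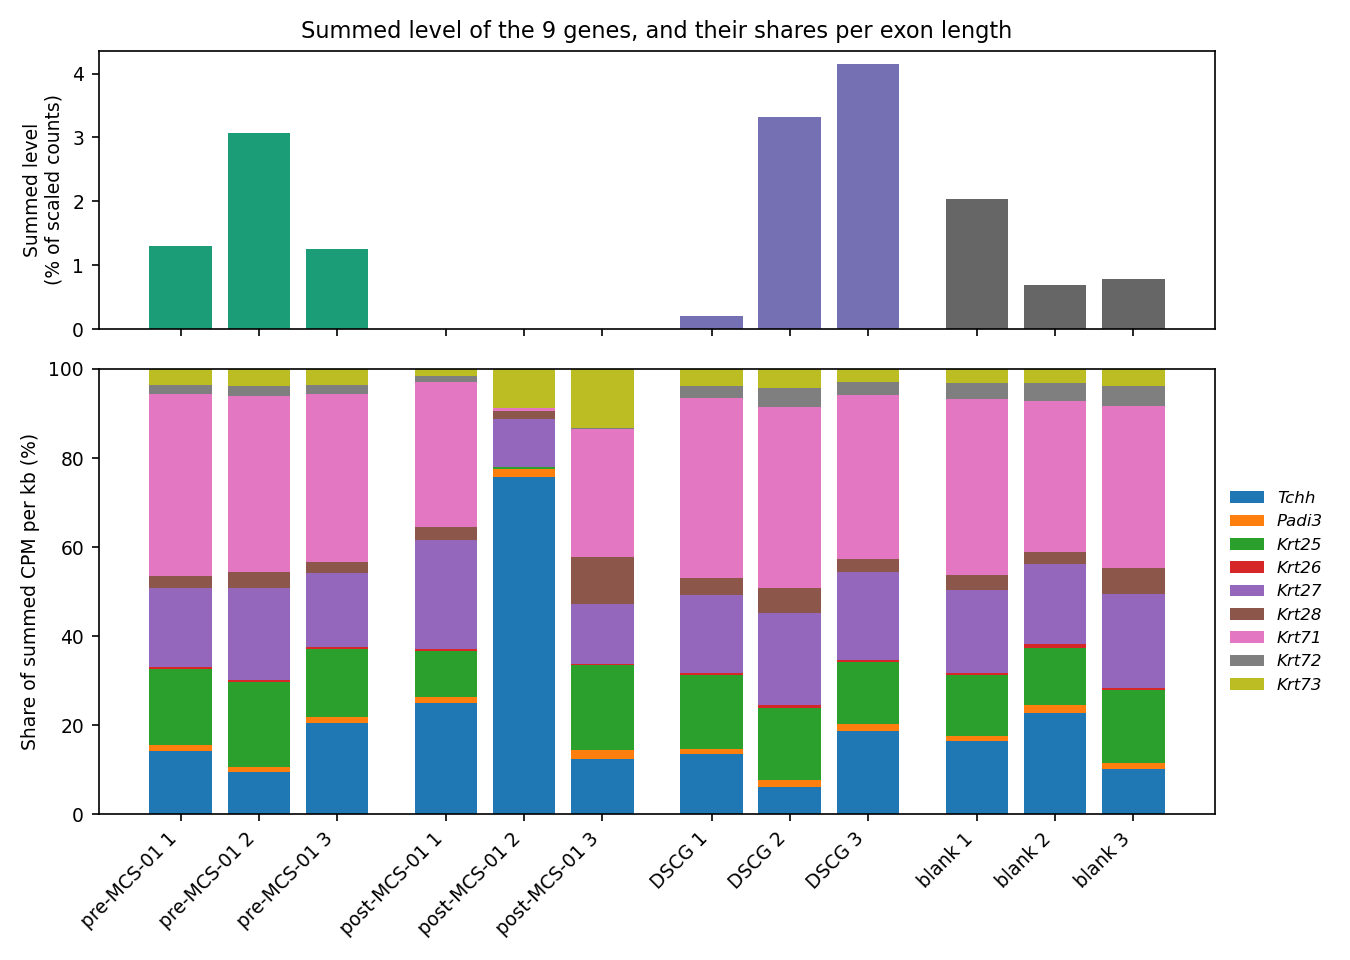
Upper panel, summed level of the 9 genes as a percentage of scaled counts in each library, from a zero baseline; the 3 post-MCS-01 bars, at most 0.00851%, are too low to see. Lower panel, share of each gene in the summed CPM per kb, where Krt71 holds 34.0% to 40.9% in each library outside post-MCS-01 and Tchh 75.7% in post-MCS-01 replicate 2.

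Genes of the hair shaft were among those with the closest pattern over the 12 libraries, and 9 of the 10 nearest are given. Likeness was measured as the root mean square difference in centred log2 CPM from the mean of the 9 genes, for which the median over other genes was 4.03. Gprc5d, an orphan receptor of hard keratinized cells, had 0.632, the hair shaft keratins Krt31, Krt33b, Krt35 and Krt86 had 0.643, 0.651, 0.703 and 0.719, and the hair cuticle protein S100a3 had 0.756. Crnn, Krtap22-2 and Krtap13-1 followed at 0.761, 0.763 and 0.773. The 9 genes themselves lay at 0.243 for Krt27 to 1.18 for Krt71, so several hair shaft genes tracked the mean more closely than Krt71 or Tchh (1.14). In post-MCS-01 replicate 2, where it had 3 counts, Krt71 was the lowest of the 9 (-12.6 in centred log2 CPM, beside a mean of -8.74). Over the 9 libraries outside post-MCS-01 alone, where the median over other genes was 1.39, Krt75, a keratin of the companion layer that lines the sheath, was the nearest at 0.145, followed by Crnn (0.175), Ggt1 (0.191), Crym (0.202), Foxe1 (0.218), Capn8 (0.249), Gabrp (0.260), Gprc5a (0.290), Dlx2 (0.291) and Krt31 (0.304). In those libraries the 9 genes themselves lay at 0.109 for Krt27 to 0.593 for Tchh, with Krt71 at 0.160.

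Other genes listed with the sheath moved in part. Of 10 further sheath genes and trichohyalin-modifying enzymes, 3 were called lower in post-MCS-01 against pre-MCS-01 and 4 against DSCG by edgeR, and none higher, with list medians of -0.53 and -0.55. The shares of all genes called lower were 0.805% and 0.916%. DESeq2 called 4 lower in each (1.91% and 2.5% of its genes), and limma-voom 0 in each. With library quality weights limma-voom called 5 lower (11.2% of all genes) and 1 higher against pre-MCS-01, and 0 against DSCG. Dsg4, a desmoglein of the hair follicle, had 0.151, 0.0720 and 0.207 CPM in post-MCS-01 against 15.2, 14.5 and 24.8 CPM in pre-MCS-01 (log2 fold change -6.95 ± 1.15 SE, edgeR adjusted p = 0.0316). Krt74, the remaining type II keratin of the sheath, had 0, 0.120 and 0.0230 CPM in post-MCS-01 and 0.608, 10.8 and 8.003 CPM in DSCG (-6.99 ± 1.17 SE, edgeR adjusted p = 0.0323). The other called genes, named after their values were seen, were the deiminase Padi1 in both comparisons (-4.91 and -5.44) and Padi4 against DSCG (-2.84). Tgm3, a transglutaminase that cross-links trichohyalin, was also looked up after its values were seen, and its log2 fold changes were 0.02 ± 0.46 SE in both comparisons. In whole wound tissue, RNA of these 10 genes from outside the sheath was not separated. An unchanged value therefore does not show that expression in the sheath was kept. Against blank edgeR called 0 of the 10, with an unadjusted p under 0.05 for 4 lower and 2 higher (5.44% and 3.91% of all genes), and DESeq2 called 4 lower (1.59% of its genes).

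Hair shaft keratins were low in the same libraries. By edgeR, 12 of 13 were called lower in post-MCS-01 against pre-MCS-01 and 12 of 13 against DSCG, with list medians of -9.33 and -9.13. The shares of all genes called lower were 0.805% and 0.916%. DESeq2 called 13 in each (1.91% and 2.5% of its genes), and limma-voom 0 in each. With library quality weights limma-voom called 13 against pre-MCS-01 (11.2% of all genes) and 0 against DSCG (0%). Krt81 had the largest change (-11.11 ± 1.74 SE against pre-MCS-01 and -11.19 ± 1.74 SE against DSCG), followed by Krt33a (-10.68 ± 1.52 SE and -10.75 ± 1.53 SE). The summed level of the 13 was 8.40 to 11.4 CPM in post-MCS-01, 1116 to 5284 CPM in the pre-MCS-01 wounds, 153 to 4724 CPM in DSCG and 699 to 1924 CPM in blank. Against blank edgeR called 0 of 13 with an unadjusted p under 0.05 for all 13 (5.44% of all genes lower), and DESeq2 called 13 (1.59%). In that comparison limma-voom called 0, and 13 with quality weights (3.16%).

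Transcription factors and signals of the hair matrix and sheath were lower by less. Of 15, edgeR called 1 lower against pre-MCS-01 (Msx1, named after its value was seen, -3.37) and 3 against DSCG (Msx2 -3.80, Hoxc13 -3.72 and, named after its value was seen, Dlx3 -3.46), with medians of -1.501 and -1.40. The shares of all genes called lower were 0.805% and 0.916%. DESeq2 called 8 and 6 lower (1.91% and 2.5% of its genes), and limma-voom 0 in each. With library quality weights limma-voom called 12 lower against pre-MCS-01 (11.2% of all genes) and 0 against DSCG (0%). Shh, a growth-phase signal of the matrix, had the largest change against pre-MCS-01 (-3.80 ± 0.97 SE, edgeR adjusted p = 0.137), followed by Msx2 (-3.73 ± 0.79 SE, edgeR adjusted p = 0.0606). Gata3, a GATA factor needed for the sheath in mice and looked up for its role, had -0.64 ± 0.38 SE against pre-MCS-01 and -0.88 ± 0.38 SE against DSCG (edgeR adjusted p = 0.604 and 0.413). Its level was 92.8, 161 and 80.3 CPM in post-MCS-01 against 162, 236 and 124 CPM in the pre-MCS-01 wounds, which overlap. Gata3 is also expressed outside the follicle.

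For the lists that follow, the background is the share of all genes with an edgeR unadjusted p under 0.05, which was 6.02% lower and 4.2% higher in post-MCS-01 against pre-MCS-01 and 6.72% lower and 4.63% higher in post-MCS-01 against DSCG. DESeq2 called 1.91% of its genes lower against pre-MCS-01 and 2.5% against DSCG. Companion layer and outer root sheath genes gave 0 of 9 called in either comparison, with medians of -0.38 and -0.22 and edgeR unadjusted p under 0.05 for 1 and 2 (DESeq2 called 1 in each). Krt75 stood lowest in that list (-3.40 ± 0.89 SE and -3.73 ± 0.91 SE, edgeR adjusted p = 0.157 and 0.0958). Dermal papilla genes gave 0 of 9, with medians of 0.24 and 0.20 and unadjusted p under 0.05 for 3 lower, and for 1 lower and 1 higher. DESeq2 called 1 dermal papilla gene lower against pre-MCS-01, and 1 lower and 1 higher against DSCG. Corin was the lowest (-3.58 and -3.98), and Alpl the highest against DSCG (1.86 ± 0.46 SE, edgeR adjusted p = 0.0997). Interfollicular epidermis gave 0 of 8 (medians -0.62 and -0.35, unadjusted p under 0.05 for 1 lower in each, DESeq2 calling 0 and 1 lower), and cell cycle genes 0 of 10 (medians -0.51 and -0.26, unadjusted p under 0.05 for 1 lower and 0, DESeq2 calling 0 in each).

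Markers of other cells were read in the same libraries. Of 10 melanocyte genes, 0 were called and 10 were lower in sign in both comparisons, with medians of -3.64 and -2.45 and an edgeR unadjusted p under 0.05 for 8 in each (DESeq2 called 7 and 6, beside 1.91% and 2.5% of its genes called lower). Oca2 had -5.99 ± 1.23 SE and -5.12 ± 1.20 SE (edgeR adjusted p = 0.0528 and 0.0822). Their summed level was 34.7 to 88.8 CPM in post-MCS-01, 202 to 921 CPM in the pre-MCS-01 wounds, 130.0 to 463 CPM in DSCG and 111 to 259 CPM in blank, with no marker at 0. Of 8 neutrophil and macrophage genes 0 were called and 8 were higher in sign in both (medians 0.82 and 1.21, edgeR unadjusted p under 0.05 for 3 and 2, DESeq2 calling 1 higher and 0), and their sum was 5168 to 10388 CPM in post-MCS-01, 4363 to 6612 CPM in the pre-MCS-01 wounds, 337 to 4218 CPM in DSCG and 1030 to 1277 CPM in blank. Dermis and fibroblast, skeletal muscle and adipocyte genes gave 0 of 6, 0 of 6 and 0 of 5 called, with medians of 0.46, 0.78 and 0.17 against pre-MCS-01 and 0.29, 0.35 and -0.79 against DSCG. An edgeR unadjusted p under 0.05 was reached by 1, 1 and 0 of them against pre-MCS-01, all higher, and by 0, 0 and 2 against DSCG, all lower, and DESeq2 called 0 of each. Over these lists, from companion layer to neutrophil and macrophage, limma-voom called no gene in either comparison, and with library quality weights it called none against DSCG. With those weights, against pre-MCS-01, it called 2 companion layer, 4 epidermal, 3 dermal papilla, 7 melanocyte and 2 cell cycle genes lower. That fit called 11.2% of all genes lower. It called 1 epidermal, 2 dermal papilla, 5 dermal, 4 muscle, 1 adipocyte and 4 neutrophil and macrophage genes higher. The share of all genes it called higher is not given here. The part of these cell types in the low sheath signal was not tested.

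**Figure D4:**
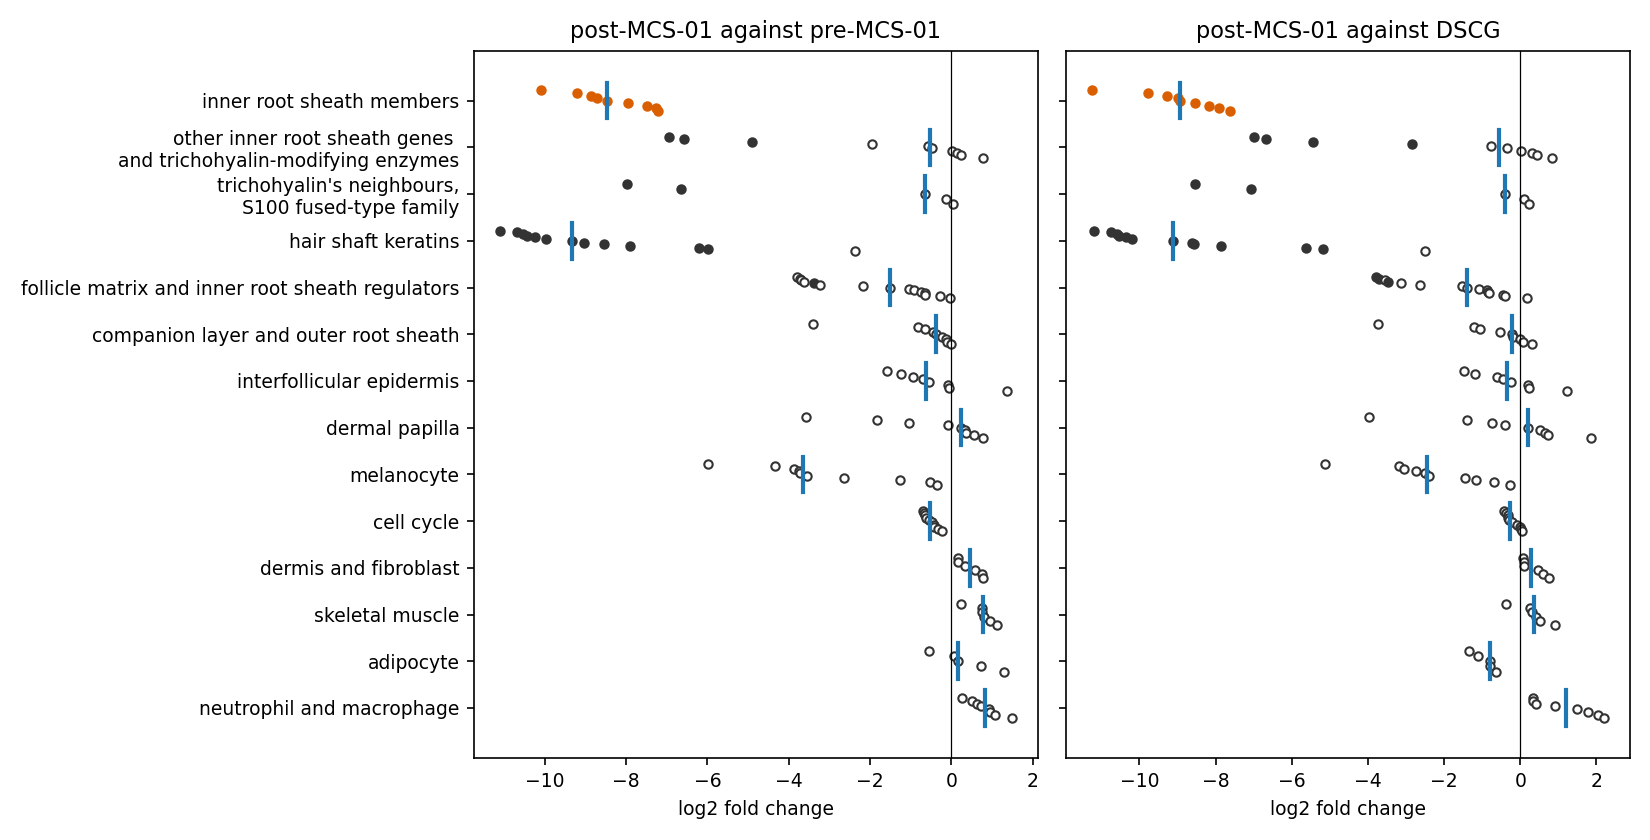
Log2 fold change of each tested gene by list in post-MCS-01 against pre-MCS-01 (left) and against DSCG (right), with a blue line at each list's median and filled points for edgeR adjusted p under 0.05. The 9 inner root sheath genes (orange, medians -8.46 and -8.94) and the hair shaft keratins (-9.33 and -9.13) stand lowest, and the other lists have medians between -3.64 and 1.21.

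The protein-coding genes next to both keratin clusters were not called, while low values went beyond Tchh and Padi3. Only near neighbours were read here. The hair shaft keratins Krt31, Krt33b and Krt35 on chromosome 11 and Krt86 on chromosome 15 were low as well. On chromosome 11, Krt10, a keratin of the upper epidermis that starts 10.4 kb from Krt28, had log2 fold changes of -0.56 against pre-MCS-01 and -0.61 against DSCG (edgeR adjusted p = 0.789 and 0.771), and Krt24 on the other side of the cluster had 3.15 and 3.13 with neither called. Beyond Krt10, Krt12 had -2.29 and -2.07 with neither called, at a median of 0.499 CPM outside post-MCS-01. On chromosome 15, Krt5, 21.1 kb from Krt71 on the other side of the cluster, had -0.10 and -0.22, and Krt2, 8.34 kb from Krt73, had -1.59 and 1.23 with neither called. Beside Tchh, the related gene Tchhl1, 19.7 kb away, was called lower in both (-6.65 ± 1.30 SE and -7.08 ± 1.33 SE, edgeR adjusted p = 0.0440 and 0.0353), and Rptn, 42.9 kb away on the other side, was not (-0.65 and 0.23). Beside Padi3, Padi1 at 2.34 kb was called in both, Padi4 at 11.1 kb against DSCG, and Padi2 at 95.7 kb in neither (0.78 and 0.44). In the family of fused S100 proteins to which Tchh belongs, 2 of 5 tested were called lower in both comparisons, Crnn (-7.96 ± 1.18 SE and -8.54 ± 1.21 SE) and Tchhl1, with medians of -0.65 and -0.41. The shares of all genes called lower were 0.805% and 0.916%, and limma-voom called 0 of the 5 in each. None of the 9 genes overlaps another annotated gene.

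**Figure D5:**
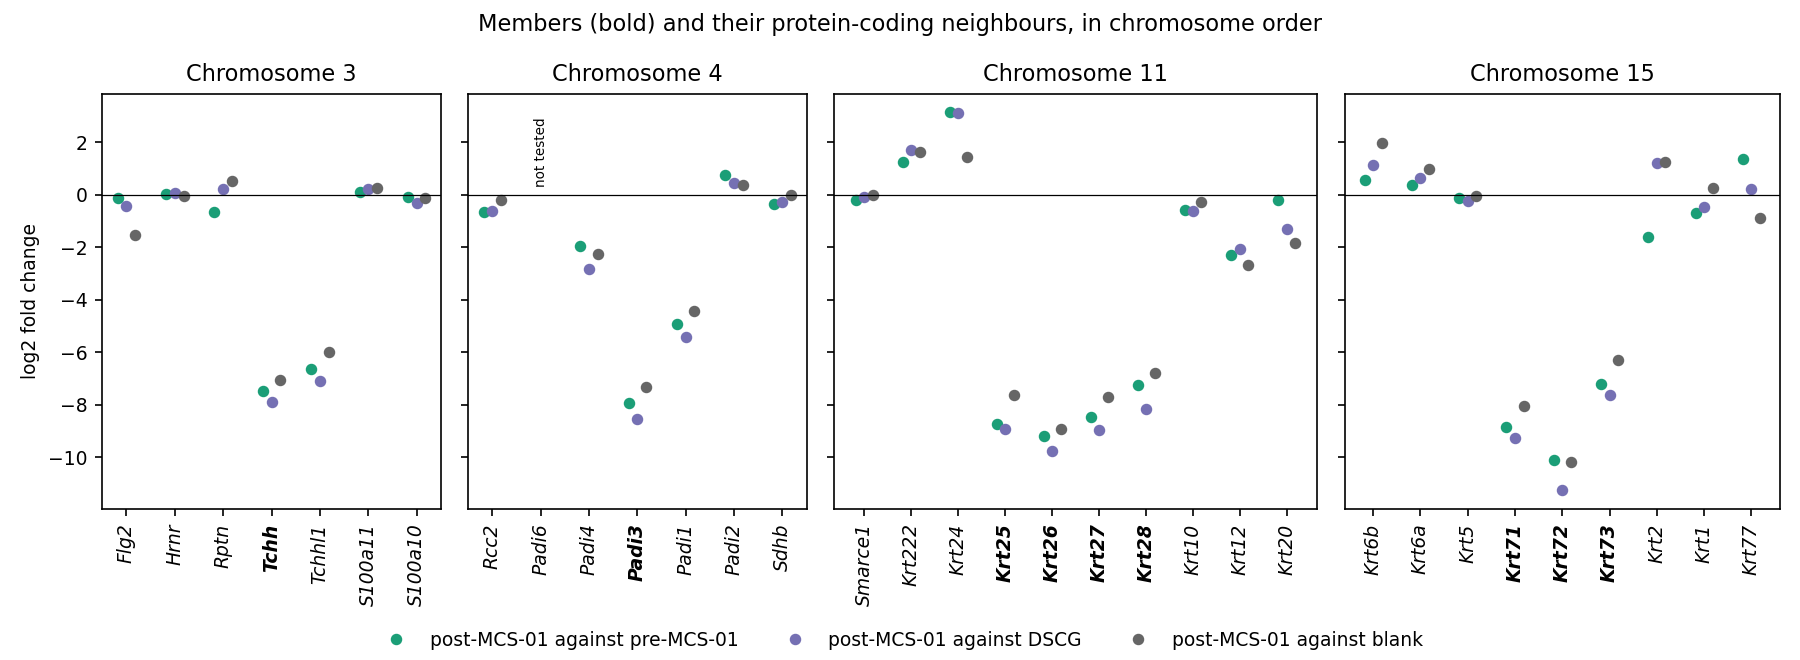
Log2 fold change of the 9 genes (bold) and the protein-coding genes around them, in chromosome order, in post-MCS-01 against pre-MCS-01, DSCG and blank. The genes next to the keratin clusters, Krt10 and Krt24 on chromosome 11 and Krt5 and Krt2 on chromosome 15, were not called. Padi6 had too few counts to be tested.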

How the data were processed

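Raw read counts per gene were deposited by the authors, 1 table per library, as HTSeq writes them. Reads were handled with FastQC, TopHat2, Bowtie2, HTSeq and limma on mm10, per the submitters' processing notes; versions, strand setting and gene annotation are not given in the sources used here. The 5 HTSeq summary lines, 22.9% to 29.3% of all reads with those not uniquely aligned, were kept out of library sizes and tests.

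A single edgeR quasi-likelihood fit (edgeR 4.0.16, R 4.3.3) covered the 12 libraries and 4 groups, with TMM scaling and edgeR's filter on low counts, which left 16267 genes. All 9 inner root sheath genes passed that filter (0.239 CPM in enough libraries). In the post-MCS-01 libraries alone, Tchh, Padi3, Krt27 and Krt73 were above it in 3 libraries, Krt25, Krt28 and Krt71 in 2, and Krt26 and Krt72 in 1. The Benjamini-Hochberg adjustment took in all genes tested, with 0.05 as the threshold. Each SE is the absolute log2 fold change divided by the square root of the quasi-likelihood F statistic. It is therefore an approximate value and not a standard error given by the fit. DESeq2 1.42.0 and limma-voom (limma 3.58.1), other filters, scalings and sample sets were alternatives, and each library was left out in turn. The fitting procedure was tested on simulated data. Nothing but the mouse number separates the libraries of a group, and p-values measure the spread between those mice.

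Exon lengths and positions came from GENCODE M21 (94.5% of symbols had a length), and upstream sequences from RefSeq. The genes and lists were chosen with earlier results of these data known. By the rule for named genes, all 9 were named in each comparison and the 10 nearest patterns were listed. A gene of another list could be named only if among the 2 with the largest change and a mean of at least 1 CPM, so not every list has a named gene, and exceptions are marked. Chromosome neighbours were taken by position. Adgre1 was matched by its older symbol Emr1, Flg and Ly6g were not analysed here, and 1 gene, among the 10 nearest over 12 libraries, is not reported here. Counting intervals and floors cover counting error only.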

Additional observations from a re-analysis of the deposited data

How the results depend on the processing

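The direction held throughout: in each comparison of post-MCS-01 with another group, all 198 values of the 9 genes under alternatives were negative. For each gene the post-MCS-01 libraries lay below all 9 others, so this sign was all but given beforehand. These refits of the same libraries are therefore no separate support for the direction. The number called did depend on the fit, and the shares of all genes called in edgeR fits other than the main one are not given here. Of the 9 genes called in post-MCS-01 against pre-MCS-01, limma-voom called 1, and 0 were called with an exon length covariate or without the 3 libraries short of long transcripts. Of the 9 called in post-MCS-01 against DSCG, limma-voom called 1, and 0 were called with library quality weights, with an exon length covariate, with only those 2 groups or without the 3 libraries. In post-MCS-01 against blank, 0 were called, but 5 without a filter on low counts, 9 by DESeq2, 9 with quality weights and 7 with only those 2 groups. The joint test called 0, against 9 by DESeq2, 1 by limma-voom and 9 with quality weights. Without 1 library, the count ran from 0 to 9 in each of the 3 post-MCS-01 comparisons and from 0 to 8 in the joint test, and the highest adjusted p over all alternatives was 0.323 against pre-MCS-01, 0.234 against DSCG and 0.359 against blank. The cause of these differences was not tested, and fits that leave libraries out also have fewer samples. No paired analysis was possible because the labels give the groups no shared replicate number. With 3 libraries a group, standard errors near 1 log2 unit limit these tests to large changes, and blank replicate 3 (3835042 counts) has the coarsest values.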
